A study of Drosophila melanogaster with 3 samples.

Results

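The genes described here are 33 fly genes of DNA replication and entry into S phase, out of 13945 protein-coding genes on the main chromosome arms. They were taken as a list of names by function: the 6 subunits of the origin recognition complex, 3 licensing factors, the 6 subunits of the MCM helicase, 6 factors that activate the helicase, 3 genes of the sliding clamp and nucleotide supply, 3 genes of the S-phase kinase, 4 of the E2F, Dp and Rbf group, and 2 subunits of chromatin assembly factor 1. Of these names, 31 are symbols of the annotation, and lat and CDC45L are older names of Orc3 and Cdc45. The assay was chromatin immunoprecipitation with sequencing (ChIP-seq), and its material was whole embryos aged 0 to 24 hours, of both sexes, from the line dpn-MiMIC-GFP, in which an eGFP exon inside an intron of dpn makes a Deadpan-GFP fusion. The antibody was directed against GFP, although dpn stands in the labels' antibody field. The series has 1 group with 3 biological replicates and no control library among its samples, so a gene list can only be set beside all genes and no condition can be compared. All embryonic stages and tissues are mixed, and binding in few cells cannot be told apart from weak binding in many.

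Before S phase, the origin recognition complex and Cdc6 work with Cdt1, the product of dup, to load the ring-shaped MCM helicase onto origins of replication. Cyclin E with Cdk2 then starts the helicase, which moves with Cdc45 and the GINS complex. E2F factors with their partner Dp switch many of these genes on, and Rbf, the retinoblastoma protein, holds E2F back. In the fly, promoters of replication genes are known for elements of E2F and of the promoter factor DREF. Deadpan, a repressor with a basic helix-loop-helix domain, belongs to the Hes family and is best known in neuroblasts, the dividing stem cells of the nervous system.

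Of the 33 genes, 16 (48.5%) had a peak of the reproducible list at their promoter, against 27.9% of all protein-coding genes (3891 of 13945). The reproducible list holds the authors' 5164 peaks selected by irreproducible discovery rate (IDR), a measure of how well peak ranks hold up across replicates. A peak was counted for a gene when its summit, the position of highest signal, lay within 1000 bp of any annotated start of the gene. Among strong peaks all shares were smaller, and those of members and all genes lay closer together in percentage points. The 2582 strongest peaks of the list reached 6 members (18.2%) and 16.3% of all genes. The 500 strongest entries of the pooled list reached 2 members (6.06%), against 3.86% of all genes. The 1000 strongest entries of the pooled list reached 3 members (9.09%), against 7.02% of all genes, and the 10000 strongest reached 23 members (69.7%), against 41.4%. With all 30000 entries of the pooled list, which include background regions, 31 members (93.9%) had an entry, against 63.1% of all genes. No test was made of these differences, since the list of genes is a single choice and the genes are not replicates.

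Each replicate list holds 30000 entries ranked by the peak caller's signal, and the 5164 strongest of a replicate are called its top entries here. Top entries lay at 17 members in replicate 1, 14 in replicate 2 and 15 in replicate 3. That is 46.5% ± 4.63 of the members (SD, n = 3), against 27.5% ± 0.612 of all protein-coding genes. The members stood above all genes in each of the 3 replicates. In all 3 replicates together, 12 members (36.4%) had a top entry, against 21.5% of all genes. With the 2500 strongest entries of each replicate the order turned. There 3 members (9.09%) had an entry in all 3 replicates, against 12.4% of all genes. Replicate by replicate, the 2582 strongest entries still reached 21.2% ± 3.03 of the members (SD, n = 3), against 16.1% ± 0.058 of all genes. A top entry was seen in 2 replicates for lat, geminin and Cdk2, and in 1 replicate for E2f2, Orc4, CycE and E2f1. The other 14 members had none in any replicate. An entry of any rank in all 3 replicate lists was found for 22 members (66.7%), against 51.2% of all genes. Signal values of different lists are on different scales, so only ranks are compared between replicates. A rank is that of the strongest entry near any start in that list, which need not be the same site in each replicate.

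**Figure D1:**
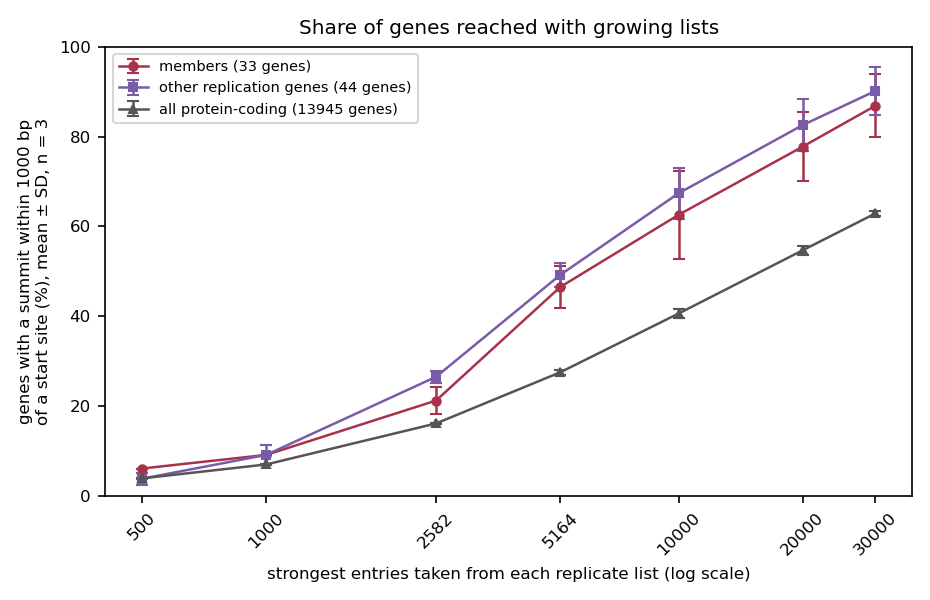
Share of genes (y axis, percent, mean ± SD over the 3 replicate lists) whose start has a summit within 1000 bp, against the number of strongest entries taken from each list (x axis, log scale), for the 33 members, 44 other replication genes and 13945 protein-coding genes. At 1000 entries the members reach 9.09% and all genes 6.96%, at 5164 entries 46.5% and 27.5%, and at 30000 entries 86.9% and 62.9%.

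Sequences under the summits of 7 bound genes show which letters lie there. They are from the NCBI sequence of genome release 6, written 5′ to 3′ on the strand of the gene, and cover up to 50 bp on each side of the summit without exon bases. Capitals mark the DREF element core TATCGA, which is part of the longer form TATCGATA, on either strand (TCGATA is TATCGA on the other strand). Mcm2 and Sld5 hold no such match and are shown for contrast.
Mcm2, + strand, chr3R:8264849-8264949: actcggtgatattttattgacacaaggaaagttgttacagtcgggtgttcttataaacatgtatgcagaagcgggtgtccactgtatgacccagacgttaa
Mcm5, + strand, chr3R:10788227-10788326: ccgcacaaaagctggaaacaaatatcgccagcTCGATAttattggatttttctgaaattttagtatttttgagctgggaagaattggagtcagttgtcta
Sld5, − strand, chr3R:26056548-26056598: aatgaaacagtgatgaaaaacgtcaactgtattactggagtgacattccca
Psf1, − strand, chr3L:1247965-1248019: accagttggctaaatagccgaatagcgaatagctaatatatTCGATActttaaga
Psf3, − strand, chrX:10385862-10385918: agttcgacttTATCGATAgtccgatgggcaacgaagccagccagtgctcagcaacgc
Cdk2, + strand, chr3R:20735540-20735622: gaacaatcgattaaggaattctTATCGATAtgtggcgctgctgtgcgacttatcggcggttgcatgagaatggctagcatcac
Caf1-180, − strand, chrX:8606340-8606440: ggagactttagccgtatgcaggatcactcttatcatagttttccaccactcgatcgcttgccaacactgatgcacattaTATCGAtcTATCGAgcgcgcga

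Of the 16 bound members, 5 had TATCGA within 50 bp of the summit (31.2%): Mcm5, Psf1, Psf3, Cdk2 and Caf1-180. Among the strongest peaks of all bound protein-coding genes the share was 16% of 2654 peaks, and among all 5164 peaks it was 10.5%. In the top entries of replicates 1, 2 and 3 the members' shares were 29.4% (5 of 17), 21.4% (3 of 14) and 20% (3 of 15), against 16.8%, 14.2% and 15.6% of the strongest peaks of all genes with a top entry. In replicates 2 and 3 the count is lower than in the reproducible list and its share lies closer to that of all such peaks. In Caf1-180 the core occurs in 2 copies separated by 2 bases, at the edge of the window toward the start of the gene. The longer TATCGATA was found at Psf3 and Cdk2 (12.5% of the bound members, against 5.58% of the strongest peaks of bound genes). Known Hes sites are the E-box (CACGTG), a related site (CACGCG) and the N-box (CACNAG). The first of them and the related site were at none of the 16 summits, against 1.13% and 2.3% of the strongest peaks of bound genes. At shares this low, none among 16 summits does not set the members apart. The N-box lay at the summits of Mcm2, Psf3 and dap (18.8%, against 13%). GC content within 50 bp of the summit had a median of 44.6% in bound members (range 28.7% to 51.5%), against 37.6% over the peaks of bound genes, and the part of base composition in these counts was not tested.

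**Figure D2:**
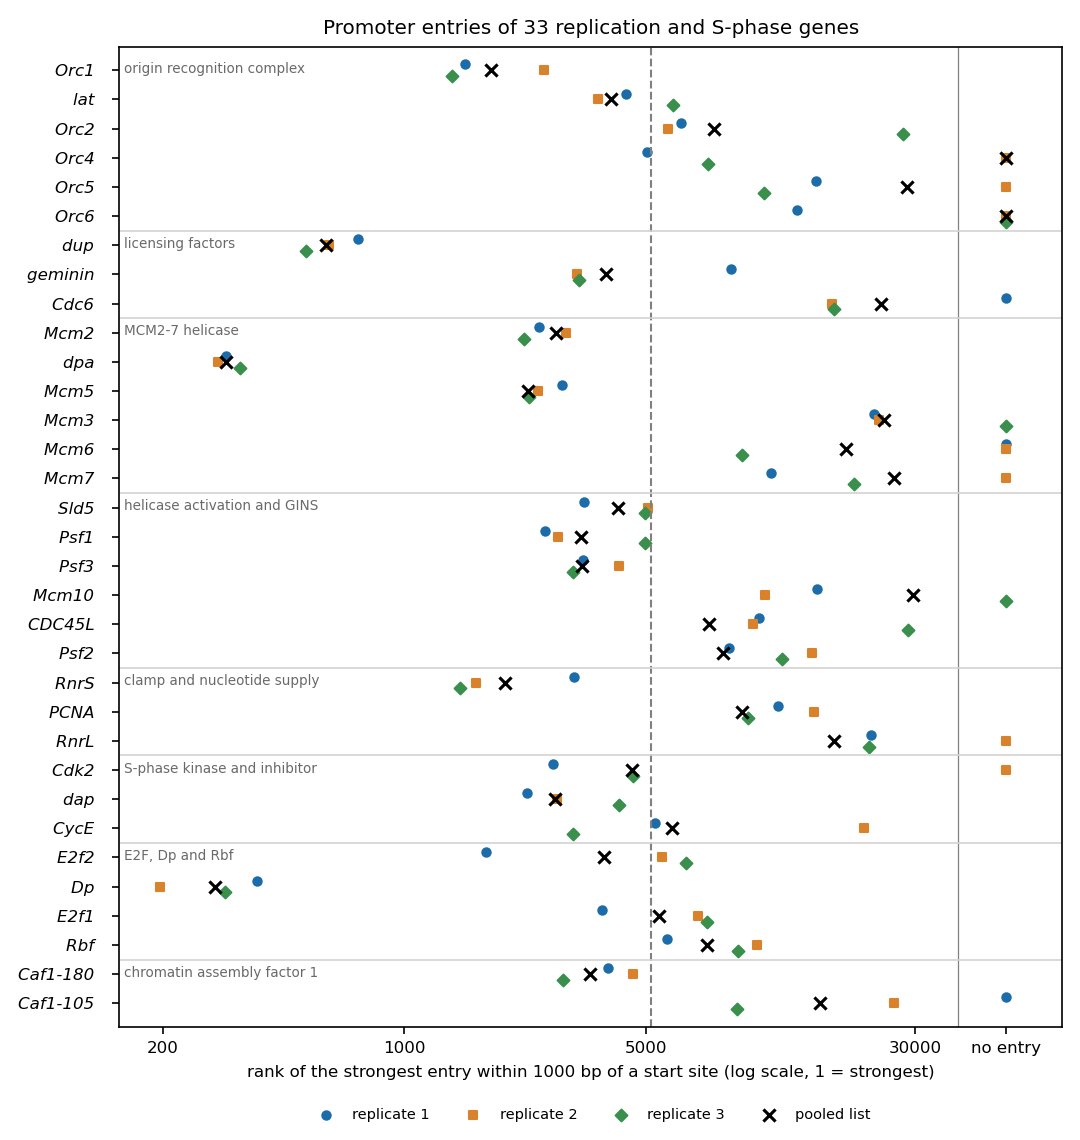
Rank of the strongest entry within 1000 bp of a start (x axis, log scale, rank 1 is the strongest) for each of the 33 genes (rows, by role) in replicates 1, 2 and 3 and in the pooled list, with genes lacking an entry at the right. The dashed line is rank 5164, the length of the reproducible list. Dp, dpa and dup stand apart at the strong end, with pooled ranks of 283, 305 and 593.

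In the origin recognition complex, which marks origins, 2 of 6 subunit genes were bound. Orc1 encodes the large subunit of the complex, and it ranked 1496, 2541 and 1379 in replicates 1, 2 and 3, with rank 1780 in the reproducible list. Its summit lay 71 bp upstream of the start, in intergenic sequence at chr2R:7525579-7525994 (genome release 6, as for all positions). No other coding gene starts within 1000 bp of Orc1, so this peak can be counted for a single coding gene. lat, which encodes the Orc3 subunit, ranked 4385, 3647 and 6009, with rank 3964 in the reproducible list and a summit 36 bp upstream of a start. That stretch is annotated as the 5' UTR of Orc3 and the 3' UTR of CG34315. The other start of Orc3 is shared with CG34315 and lies 198 bp from FLASH, but the summit lay 1174 bp inside it, so the peak was at the inner start, which is that of Orc3 alone.

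The other 4 subunit genes of the complex were not in the reproducible list. Orc2 had ranks of 6338, 5787 and 27796, with summits 821 and 869 bp upstream and 673 bp downstream, so not of 1 site. Its strongest pooled entry, rank 7892, lay 869 bp upstream, in the 5' UTR of the neighbour Kots. Orc5 ranked 15539 in replicate 1 and 11015 in replicate 3, had no entry in replicate 2, and ranked 28459 in the pooled list. Orc4 had ranks of 5026 in replicate 1 and 7549 in replicate 3, with summits 13 bp downstream and 3 bp upstream of the start, and no entry in replicate 2 or in the pooled list. Orc6 had 1 entry in all, rank 13690 in replicate 1. Orc4, Orc5 and Orc6 thus each lacked an entry in at least 1 of the 3 replicates.

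Of the licensing factors, 2 of 3 were bound. dup encodes Cdt1, which brings the helicase to origins, and it ranked 735, 608 and 519 in the replicates and 593 in the reproducible list. Its summits kept to a narrow stretch, 78, 83 and 78 bp upstream of the inner of 2 dup starts in replicates 1, 2 and 3. SRPK, a kinase gene read in the opposite direction, starts 110 bp from that inner start. The summit of the reproducible list, in the 5' UTR of dup, lay 81 bp upstream of the inner start and 29 bp upstream of SRPK. geminin, whose product blocks Cdt1, ranked 8815, 3158 and 3212, so that replicate 1 was outside its top entries. In the reproducible list (rank 3838) the summit lay 1 bp downstream of the inner of 2 geminin starts, in the 5' UTR of the gene. In the replicates it lay between 4 bp upstream and 2 bp downstream of that start. Cdc6, which loads the helicase together with the origin recognition complex, was not bound: it had no entry in replicate 1 and ranks of 17281 and 17505 in replicates 2 and 3. The summits lay 776 bp downstream and 495 bp upstream of the start, so they were not 1 site. The pooled entry, rank 23970, lay 514 bp upstream in a coding exon of Zasp66.

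Of the 6 subunits of the MCM helicase, dpa, Mcm2 and Mcm5 were bound, each in the top entries of all 3 replicates. dpa encodes the Mcm4 subunit, and it ranked 305, 289 and 334 in the replicates and 305 in the reproducible list. Its summit at chr2R:7499861-7500129 lay in the 5' UTR of dpa, 134 bp from each of 2 annotated dpa starts, while didum, a myosin gene in the opposite direction, starts 2 bp from dpa. Mcm2 ranked 2449, 2932 and 2228 in the replicates and 2743 in the reproducible list, 71 bp upstream of its start. RPA1, the large subunit of the single-strand binding protein of replication, starts 519 bp away in the opposite direction. In replicates 1, 2 and 3 the summits lay 97, 335 and 117 bp upstream of Mcm2. The summit of replicate 2 was nearer to RPA1, 184 bp from its start. The Mcm2 peak, chr3R:8264811-8264965, was also the strongest peak of RPA1, 448 bp upstream of the RPA1 start, so both genes were counted through the same peak. Mcm5 ranked 2866, 2431 and 2292 in the replicates and 2278 in the reproducible list, 248 bp upstream of its start. Another peak of the list, rank 2869, lay 44 bp upstream of Mcm5. Art1 starts 298 bp from Mcm5 in the opposite direction, and the stronger peak was nearer to Art1 (50 bp).

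Mcm3, Mcm6 and Mcm7 were far weaker, each lacking an entry in at least 1 replicate. Mcm3 ranked 22850 and 23692 in replicates 1 and 2, with no entry in replicate 3 and a pooled rank of 24482, inside its own coding exon 521 bp downstream of the start. Mcm6 had an entry in replicate 3 only, rank 9460, and a pooled rank of 18940. Mcm7 ranked 11532 and 20018 in replicates 1 and 3, with no entry in replicate 2 and a pooled rank of 26086. The genes of 1 hexamer thus ranged from rank 305 to rank 26086 in the pooled list.

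Of the genes that activate the helicase, the GINS subunit genes Sld5, Psf1 and Psf3 were bound, and Psf2, CDC45L and Mcm10 were not. Sld5 ranked 3309, 5073 and 4986 in the replicates and 4146 in the reproducible list, with a summit 1 bp upstream of its start and 82 bp upstream of the opposite gene CG14543. Psf3 ranked 3282, 4178 and 3086 in the replicates and 3276 in the reproducible list, with a summit 7 bp upstream of its start and 92 bp upstream of flw, a phosphatase gene in the opposite direction. In the reproducible list both summits lay nearer to Sld5 and Psf3 than to the opposite genes, but the Psf3 summit of replicate 1 lay 67 bp upstream of Psf3, nearer to flw. Psf1 ranked 2554, 2787 and 4978 in the replicates and 3255 in the reproducible list. Its summit, 338 bp upstream, lay in an intron of Sac1 and 5 bp from a start of that phosphoinositide phosphatase gene, which makes Sac1 the nearer gene. At the 3 genes the weakest replicate was within rank 5073 of the 30000 entries.

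Psf2, the remaining GINS subunit gene, ranked 8684, 15129 and 12361 in the replicates and 8362 in the pooled list. Its pooled summit lay 5 bp upstream of the inner of its 2 starts, in an intron of the gene. CDC45L encodes Cdc45, the partner of GINS in the moving helicase, and it ranked 10653, 10185 and 28667, with a pooled rank of 7643. Mcm10, which helps to start the loaded helicase, ranked 15681 and 11070 in replicates 1 and 2, with summits 198 and 976 bp upstream. It had no entry in replicate 3 and a pooled rank of 29583. All 3 genes had an entry in the pooled list, and none was among the top entries of any replicate.

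RnrS, the small subunit of ribonucleotide reductase, which makes the deoxynucleotides, was the bound gene of the clamp and nucleotide group. It ranked 3099, 1612 and 1454 in the replicates and 1952 in the reproducible list, with a summit 172 bp upstream of its start and CG34231 starting 615 bp away in the opposite direction. RnrL, the large subunit of the same enzyme, ranked 22372 and 22157 in replicates 1 and 3 and 17498 in the pooled list, 982 bp downstream of its start in a coding exon, with no entry in replicate 2. PCNA, the sliding clamp, ranked 12055, 15303 and 9908 in the replicates and 9486 in the pooled list, 2 bp upstream of its start. Of the enzyme's 2 subunit genes, only RnrS had a peak of the reproducible list.

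Of the S-phase kinase genes, Cdk2 and its inhibitor dap were bound, and CycE was not. dap encodes Dacapo, the inhibitor of Cyclin E with Cdk2, and it ranked 2265, 2767 and 4196 in the replicates and 2732 in the reproducible list. The summit lay 28 bp downstream of the dap start in its 5' UTR, and no other coding gene starts within 1000 bp. Cdk2 ranked 2700 in replicate 1 and 4603 in replicate 3, had no entry in replicate 2, and ranked 4566 in the reproducible list, 33 bp upstream of its start. Its call therefore rests on 2 of the 3 replicates. CycE, which encodes Cyclin E, had ranks of 5331, 21342 and 3075 in the replicates and 5951 in the pooled list, in an intron of its own gene, 409 bp upstream of one of its starts. Replicate 3 thus had CycE among its top entries, while replicate 2 had it far below them.

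The transcription factor genes of the E2F group held the strongest peak of all 33 genes. Dp, the partner of both E2F factors, ranked 375, 196 and 303 in the replicates and 283 in the reproducible list. That peak, chr2R:13223204-13223520, lay in an intron of Dp, 255 bp upstream of one of its starts. Further peaks of the reproducible list lay 50 bp upstream (rank 1058) and 413 bp downstream (rank 1109) of Dp starts, and Fsn starts 26 bp from Dp in the opposite direction. E2f2, the repressing E2F of the fly, ranked 1719, 5556 and 6517 in the replicates, so that replicate 1 alone had it among the top entries, and 3783 in the reproducible list. Its summit lay in its 5' UTR, 36 bp upstream of one E2f2 start and 20 bp upstream of Mpp6, which starts 56 bp from E2f2.

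E2f1, the activating E2F, had ranks of 3745, 7101 and 7533 in the replicates, with summits that spanned 817 bp. Its pooled rank was 5468, just outside the 5164 peaks, in its own intron 321 bp upstream of a start. Beyond the 1000 bp window, introns of E2f1 held 2 peaks of the reproducible list, rank 2992 at 3207 bp upstream and rank 3969 at 4708 bp downstream of the nearest start. Rbf, which restrains E2F, had ranks of 5770, 10457 and 9249 in the replicates and 7504 in the pooled list. Of the group, Dp alone was in the top entries of all 3 replicates.

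Chromatin assembly factor 1 places histones behind the fork, and 1 of its 2 subunit genes here was bound. Caf1-180, the large subunit, ranked 3877, 4592 and 2881 in the replicates and 3454 in the reproducible list. Its summits lay 84, 84 and 65 bp upstream of the start, in intergenic sequence with no other coding start within 1000 bp. Caf1-105 had no entry in replicate 1. It ranked 26188 and 9179 in replicates 2 and 3, with summits 964 bp downstream and 499 bp upstream. Its pooled rank was 15942, in an intron of CG11777.

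The distance from the strongest summit to the nearest start had a median of 71 bp over the 16 members (range 1 to 338 bp), against 144 bp over all 3891 bound protein-coding genes. With 1 start per gene, the 5' end of the gene, in place of every transcript start, the medians were 134 bp over 15 members and 146 bp over 3623 genes, so the difference depends on the use of all starts. In the top entries of replicates 1, 2 and 3, with all starts, the members' medians were 78, 74.5 and 78 bp, against 139, 156 and 150 bp over all genes. With all starts, within 100 bp of one lay 11 of the 16 summits (68.8%), against 37.4% over all bound genes, and within 500 bp lay all 16, against 84.4%. The median rank of the bound members was 2999 of 5164, against 2161 over all bound genes, with Dp, dpa and dup far stronger than that. Ranks varied between replicates about as they did elsewhere, the highest rank being 1.65 times the lowest at the median of 15 members, against 1.63 times over all bound genes. The position of the summit spanned a median of 57 bp between the replicates (15 members), against 44 bp over all bound genes.

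**Figure D3:**
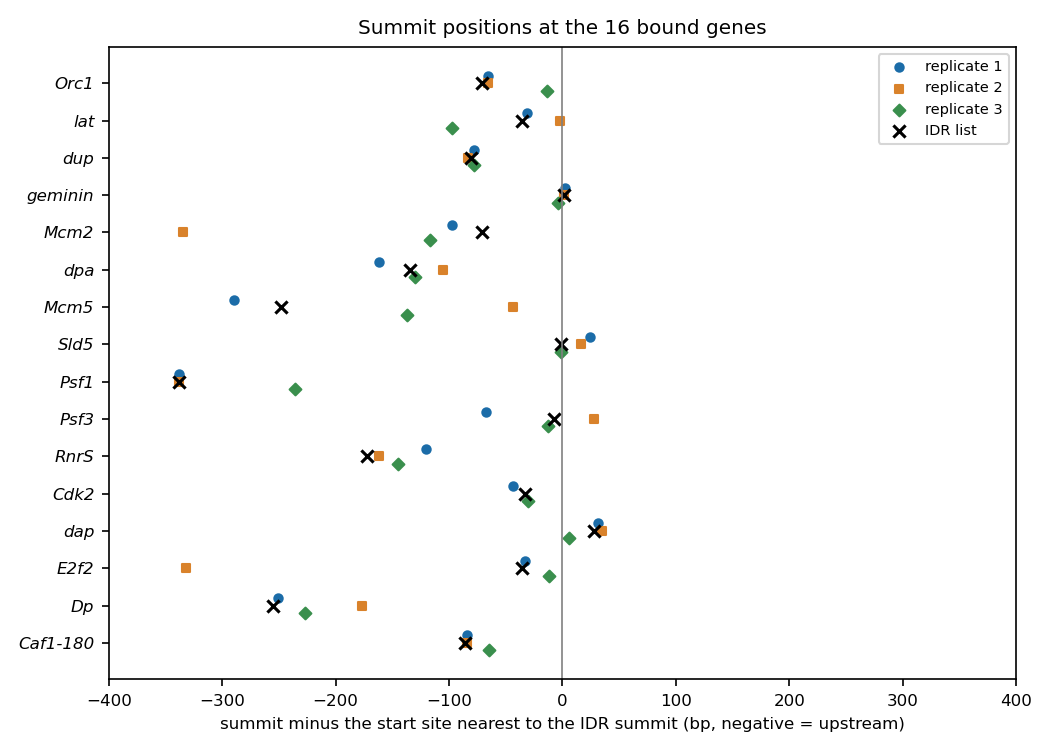
Distance of the summit from the start nearest to the summit of the reproducible list (x axis, bp, negative is upstream) for the 16 bound genes (rows) in replicates 1, 2 and 3 and in the reproducible list (crosses). dup, geminin and Caf1-180 keep their place to within 19 bp in the replicates, and Mcm2, Mcm5 and E2f2 span more than 200 bp. At dpa the cross lies 134 bp from 2 starts and is drawn upstream.

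Many of these genes share a promoter region with another gene. A start of another coding gene lay within 1000 bp of 21 members (63.6%), against 42.9% of all protein-coding genes. Of those 21 members, 12 were bound (57.1%), against 43.5% of all genes with such a neighbour. Of the 12 members without one, 4 were bound (33.3%), against 16.2% of all genes without one. These 4, Orc1, Cdk2, Caf1-180 and dap, were bound with no other coding start nearby. Among 13 members with an oppositely directed coding start within 300 bp, a distance chosen after the values were seen, 9 were bound (69.2%), against 49.7% of all such genes. At 12 of the 16 bound members the member was the nearest coding gene to its strongest summit (75%), against 68.7% over all bound genes. Mcm5, dup, Psf1 and E2f2 were the exceptions, with Art1, SRPK, Sac1 and Mpp6 nearer.

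A further 44 genes of replication and its control, not among the 33, were reached to a like extent: 23 were bound (52.3%), and 17 were in the top entries of all 3 replicates (38.6%). The 6 strongest were chif, Dref, Top1, Rbf2, Ctf4 and Top2, with ranks of 71, 617, 792, 839, 1456 and 1529 in the reproducible list. chif encodes the fly partner of the Cdc7 kinase that fires origins, and it ranked 64, 87 and 75 in the replicates. Its summit lay 989 bp upstream of a chif start, with a weaker peak of rank 1592 at 88 bp upstream, so the strong one was just inside the window. Dref encodes the factor of the TATCGATA element, and it ranked 493, 463 and 838, with a summit 30 bp upstream of its start. Rbf2, a relative of Rbf, ranked 731, 868 and 986, and Top1, a DNA topoisomerase, ranked 695, 702 and 1070. Some of these peaks lie at shared starts. RpL13, CG32856 and CG8067 start 84, 95 and 78 bp from Dref, Rbf2 and Ctf4 in the opposite direction. The Ctf4 summit was nearer to CG8067 (22 bp) than to Ctf4 (100 bp), and Hyls1 shares a start with chif. The 21 genes without a peak were PolA2, Prim2, PolE2, PolD1, PolD3, RPA2, RPA3, Gnf1, RfC3, RfC4, RfC38, DNAlig1, timeout, mus101, Chrac-16, asf1, Caf1-55, Ts, dnk, CycA and mip40. They include every clamp loader gene of the list (Gnf1, RfC3, RfC4 and RfC38). Of all protein-coding genes 27.9% were bound, so these few unbound genes say little about clamp loaders. RfC38 ranked 8232, 8081 and 6655 in the replicates, and RfC3 had an entry in replicate 2 only. RPA3 had no entry in any of the lists.

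Letters known from replication promoters were then looked for from 250 bp before to 50 bp after the first start of each gene, on both strands. Binding, in contrast, was counted at any start. At lat, dup, geminin, E2f2 and Dp the strongest summit lay nearer to a later start, so the promoter searched was not the one at that summit. The E2F forms searched were TTTCCCGC, TTTCGCGC, TTTGCCGC and TTTGGCGC. One of these lay in the promoters of 15 members (45.5%), against 6.43% of all protein-coding genes, with first bases from -127 bp (lat) to 36 bp (Mcm2) of the start. The share was alike in bound and unbound members, 8 of 16 (50%) and 7 of 17 (41.2%), as it was over all bound and unbound genes (7.02% and 6.2%). Within 50 bp of the summit the forms were found at 2 of the 16 bound members, lat and Sld5 (12.5%), against 1.58% of the strongest peaks of bound genes. TATCGA was in the promoters of 14 members (42.4%), against 27.7% of all genes, with 8 of the 16 bound members (50%) and 6 of the 17 others (35.3%), against 39.4% of bound and 23.2% of unbound genes overall. TATCGATA was in 8 (24.2%), against 9.36%. GGTCACAC, the core of the promoter element called Motif 1, was in the promoters of 6 members (18.2%), against 7.7% of all genes. All 6 were among the 17 unbound members, and none of the 16 bound members had it, whereas over all genes it was in 12.3% of bound and 5.94% of unbound promoters. CACNAG was in 12 promoters (36.4%, against 29.7%), those of 8 of the 16 bound members (50%) and 4 of the 17 others (23.5%). Over all genes it was in 31.8% of bound and 28.9% of unbound promoters, and it was in 20.5% of the 44 other replication genes. Of the 8 bound members with CACNAG, geminin, E2f2 and Dp had their summit nearer to a later start. CACGCG was in the promoters of Cdc6 and E2f1 (6.06%, against 6.12%), and CACGTG in none (against 4.2%). A match gives the letters only, not binding of the factor.

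The E2F matches of 7 of the 15 members are an example of bound and unbound genes with the same letters. The matches are in capitals, and GCGGCAAA and GCGCCAAA are TTTGCCGC and TTTGGCGC read on the other strand. All are from release 6 on the strand of the gene. Mcm2, Mcm5, Sld5 and Psf1 were bound, and Mcm3, Mcm6 and CDC45L were not.
Mcm2, chr3R:8264996-8265019: tagcaaacatTTTCCCGCgcattt
Mcm5, chr3R:10788546-10788573: ggtaattttgGCGGCAAAatattcgcac
Sld5, chr3R:26056514-26056541: cccaaaatttGCGCCAAAatctgcaaaa
Psf1, chr3L:1247714-1247741: cgacgaacatTTTGGCGCgaatccatca
Mcm3, chrX:5323839-5323866: acactacgctTTTCCCGCgaaaaaactt
Mcm6, chrX:6674390-6674417: tcagaaaaagGCGCCAAAaccgagcaaa
CDC45L, chrX:1030534-1030561: aagccagctgTTTCCCGCgtttttgatt

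The GGTCACAC matches belong to CDC45L, Caf1-105, Mcm10, Mcm3, Orc5 and Rbf. All matches of 5 of these genes follow on the strand of the gene, with the match in capitals (GTGTGACC is the same element on the other strand).
Mcm3, chrX:5323825-5323852: cccacagtatGGTCACACtacgcttttc
Mcm10, chr2L:21179921-21179948: tacattacccGGTCACACtgagcccgcc
CDC45L, chrX:1030557-1030584: atttcacactGGTCACACtggctaagcc
CDC45L, chrX:1030744-1030771: gggcgtcgcgGTGTGACCgtatctggag
Orc5, chr2L:13829854-13829881: ccatttcaatGGTCACACtaaacagaaa
Rbf, chrX:801511-801538: gcgcgcgtcgGTGTGACCgcatggcttt
In the promoters of Mcm3, CDC45L and Orc5 an E2F form and GGTCACAC lie close together, with the nearest first bases 14, 23 and 17 bp apart.

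**Figure D4:**
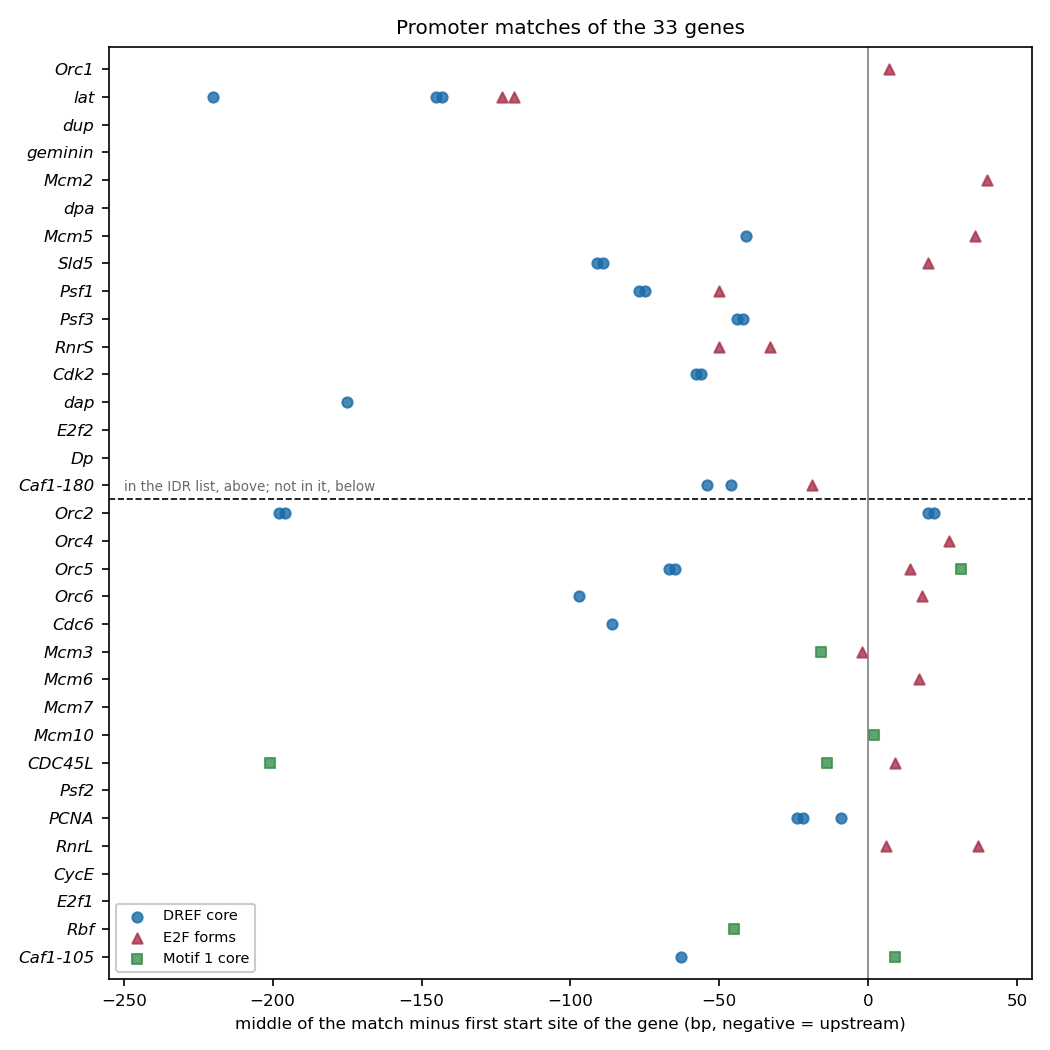
Position of matches (x axis, bp from the first start of the gene, negative is upstream) in the promoters of the 33 genes (rows), with genes of the reproducible list above the dashed line and the others below it. Circles are TATCGA, triangles the E2F forms and squares GGTCACAC. E2F forms occur on both sides of the line (8 and 7 genes), GGTCACAC below it only (6 genes).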

How the data were processed

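The authors deposited ranked lists of regions for 3 biological replicates, for the pooled replicates and for the IDR-thresholded set, in release 6 (dm6) and an older build that was not used here. In these deposited lists, column 7 gives a signal per region, which served here to rank the entries of a list and nothing else. Column 9 is, in the deposited list format, the −log10 of a q-value. It was 4.05 for all entries of the IDR list and ranked nothing. Column 10, another deposited value, places the summit as a number of bases into the region. The aligner and peak caller are not given in the sources used here. Per the labels, chromatin was sonicated to 200 to 800 bp. The lists hold no read counts, so depth and counting error are unknown.

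The 5164 IDR peaks were the 5164 strongest entries of the pooled list. Summits were assigned to starts of Ensembl release 115 transcripts on the main arms, within 1000 bp, and the strongest was kept. Each replicate's 5164 strongest entries were its top entries. Sequence came from the NCBI release 6 genome. Python 3.11.15, pandas 2.3.3, NumPy 2.4.6 and matplotlib 3.10.9 were used, and the counting steps were tested on simulated data. No significance test was made. All 33 members are reported, with replicate ranks, and of the other replication genes the 6 strongest and all unbound ones. Members, lists and motifs were chosen with earlier results of these data known. Alternatives changed the window, list length, annotation, start sites, treatment of shared starts and replicates used.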

Additional observations from a re-analysis of the deposited data

How the results depend on the processing

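The count of 16 bound members (48.5%, against 27.9% of all genes) was 16 within 500 bp (against 24.5%) and 15 within 250 bp (45.5%, against 20.2%). It was 16 with the NCBI annotation (against 27.9%) and 15 with 1 start site per gene (45.5%, against 26%). When each peak went to its nearest coding gene only, it was 13 (39.4%, against 20.1%). Whichever replicate was left out, it was 13 (39.4%, against 22.3% to 22.9%), with the reproducible list itself still made from all 3. The count was 6 with the stronger 2582 peaks (18.2%, against 16.3%) and 4 of 12 without genes that share start sites (33.3%, against 16.2%). Settings chosen after seeing the data gave 3 with the 1000 strongest pooled entries (9.09%, against 7.02%) and 23 with 10000 (69.7%, against 41.4%). They gave 31 with all 30000 (93.9%, against 63.1%), and 9 among the 13 genes with an opposite start within 300 bp (69.2%, against 49.7%). For the other 44 genes, 23 bound (52.3%, against 27.9%) became 12 with the stronger peaks (27.3%, against 16.3%). The count was 8 of 15 without shared starts (53.3%, against 16.2%), and 18 to 19 with a replicate left out (40.9% to 43.2%, against 22.3% to 22.9%). The 12 members in the top entries of all 3 replicates (36.4%, against 21.5% of all genes) became 3 with 2500 entries (9.09%, against 12.4%). They became 16 with 10000 entries (48.5%, against 31.4%), and 13 with any replicate left out (39.4%, against 23.2% to 23.7%). The median distance of 71 bp was 134 bp with 1 start site per gene (146 bp over all genes), and 78, 74.5 and 78 bp in replicates 1, 2 and 3. The 5 of 16 members with TATCGA at the summit were 31.2%, against 16% of the strongest peaks of bound genes. They became 2 for TATCGATA (12.5%, against 5.58%). In replicate 1 they were 5 of 17 (29.4%, against 16.8%). In replicate 2 they were 3 of 14 (21.4%, against 14.2%), and in replicate 3 they were 3 of 15 (20%, against 15.6%). The count was 6 within 100 bp and 7 in the whole region, where no share over other peaks was counted. A wider search can only raise a count. Fewer entries or genes can only lower a count. Why the members' shares changed beside those of all genes was not tested. No paired analysis was possible because there is 1 group. Without read counts or a control library, depth and background at each promoter are unknown, and peaks at shared starts cannot be given to 1 gene.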
